A study of Bos taurus with 96 samples.

Results

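The genes described here are 4 genes that carry fatty acids into metabolism, taken as named rows out of the 24616 gene rows that were counted in each library. They are FABP3 (ENSBTAG00000016819), ACSL4 (ENSBTAG00000018986), CPT1B (ENSBTAG00000016048) and ECHDC2 (ENSBTAG00000002910), and all 4 passed the filter on low counts in both tissues. They were measured by RNA sequencing in biopsies of liver and of muscle from 16 cows of the Holstein breed, 8 with good genetic merit for fertility (Fert+) and 8 with poor genetic merit for fertility (Fert-). Each cow gave both tissues at 3 time-points: late pregnancy (LP), early lactation (EL, about the day after calving) and mid-lactation (ML). This made 12 groups of 8 cows, or 96 libraries, and the muscle was the semitendinosus.

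Long-chain fatty acids released from body fat are a main fuel of muscle when feed intake does not cover the demand of the udder, as happens around calving. Inside the cell they are bound by small carrier proteins, and FABP3 is the carrier of heart and skeletal muscle, whereas liver relies on a different member of that family. Acyl-CoA synthetases then attach coenzyme A, the step that commits a fatty acid to oxidation or to lipid synthesis. ACSL4 is the synthetase with a preference for arachidonic acid and other polyunsaturated fatty acids. CPT1B is the muscle form of carnitine palmitoyltransferase 1, which opens the entry of acyl-CoA into mitochondria and sets the rate of beta-oxidation. ECHDC2 is a mitochondrial protein with an enoyl-CoA hydratase domain, named for its likeness to the beta-oxidation enzymes, and its own substrate is not well known.

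Libraries held between 14966847 and 26358063 counts in liver and between 15279337 and 22018740 in muscle. Levels below are in CPM, that is counts scaled to library size, with TMM factors from the 48 libraries of each tissue. They carry no correction for gene length, so they compare groups and not genes. Hepatocyte markers (10 genes such as ALB and TTR) summed to between 86585 and 237591 CPM in liver and to between 1.36 and 185 CPM in muscle. The list of 10 skeletal muscle fibre genes (ACTA1, CKM, TTN and others, on 11 gene rows) summed to between 37078 and 298943 CPM in muscle and to between 9.09 and 40.0 CPM in liver, with between 1 and 3 of its rows at 0 in every liver library of a time-point. The labels of both tissues matched these markers. A set of 13 libraries, called batch B here, counted genes that the other 83 did not (11 to 17 of 19 such genes, against 0 to 3). In muscle all 5 of these came from Fert- cows, so batch and genotype overlap there in part. In liver they were 8 of 48, with 2 at each time-point in Fert+ cows and 0, 1 and 1 at LP, EL and ML in Fert- cows. Batch and genotype thus overlap in part in liver too. One batch B library stood apart for the members, liver at EL of Fert+ cow 3847. It held the lowest CPT1B and ECHDC2 and the highest ACSL4 and FABP3 of the 16 cows at that time-point. Its slow fibre markers summed to 403 CPM, the highest of the 16 cows (Fert+ median 140 CPM). Of the 9 slow fibre rows, 6 were at 0 in every Fert+ liver library at EL. The skeletal muscle fibre list summed to at most 21.7 CPM in those libraries. Neutrophil markers of cow 3847 summed to 102 CPM, the highest of the Fert+ cows in liver at EL (Fert+ median 6.38 CPM). Fert- cow 164 held 284 CPM there (Fert- median 9.45 CPM). The part of these markers in the values of cow 3847 was not tested.

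All 4 genes differed between the tissues at every time-point, and the libraries of muscle and liver overlapped only for ECHDC2 at EL. The share of all genes without such an overlap is not given here, so this separation does not set the members apart from other genes. Levels of the tissues were scaled separately, and the tests between them used a fit of all 96 libraries. FABP3, the muscle carrier, was between 53.6 and 447 CPM in muscle and between 0.511 and 3.50 CPM in liver, where it rested on 11 to 78 counts per library. Its level was highest in muscle at EL (241 ± 101 CPM, SD, n = 16 cows), followed by muscle at LP (165 ± 67.3) and ML (128 ± 44.8), and the liver groups lay at 1.25 ± 0.707, 1.20 ± 0.567 and 0.999 ± 0.263 at EL, ML and LP. CPT1B was likewise a muscle gene, with 89.8 ± 17.2 CPM at EL, 63.0 ± 5.82 at ML and 54.5 ± 10.4 at LP, against 16.9 ± 15.3, 5.98 ± 2.68 and 10.7 ± 8.59 in liver. ACSL4 held 156 ± 117 CPM in muscle at EL, 34.7 ± 5.44 at ML and 33.0 ± 4.31 at LP, and in liver 16.4 ± 3.46 at ML, 11.6 ± 4.12 at EL and 10.7 ± 3.04 at LP. ECHDC2 was the only one of the 4 with more reads in liver, at 126 ± 25.1 CPM at LP, 125 ± 19.0 at ML and 90.9 ± 29.4 at EL, against 24.9 ± 9.69, 21.9 ± 7.82 and 13.0 ± 7.76 in muscle at ML, LP and EL. Within this order LP and ML did not differ past the threshold in muscle for any of the 4 genes, nor did any pair of liver time-points for FABP3, LP and EL for CPT1B and ACSL4 in liver, LP and ML for CPT1B in liver, or LP and ML for ECHDC2 in liver.

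Muscle exceeded liver in FABP3 by 7.43 on the log2 scale at LP (standard error 0.24), 7.71 at EL (0.245) and 6.83 at ML (0.24). For CPT1B the difference was 2.50 (0.22), 2.77 (0.22) and 3.47 (0.23), and for ACSL4 it was 1.70 (0.16), 3.80 (0.17) and 1.13 (0.16). ECHDC2 was lower in muscle, with differences of -2.48 (0.15), -2.85 (0.16) and -2.33 (0.15). Every one of these 12 differences passed edgeR's quasi-likelihood test, and so did 87.2%, 87.8% and 86.5% of the 14613 genes tested at LP, EL and ML. The median of the signed differences over all genes was -0.20, -0.13 and -0.22, which does not measure the size of a typical difference. By log2 fold change, over the 3 time-points, FABP3 ranked 271 to 342 from the highest of the 14613 genes. CPT1B ranked 915 to 1469 and ACSL4 822 to 3032 from the highest, and ECHDC2 2446 to 2920 from the lowest.

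**Figure D1:**
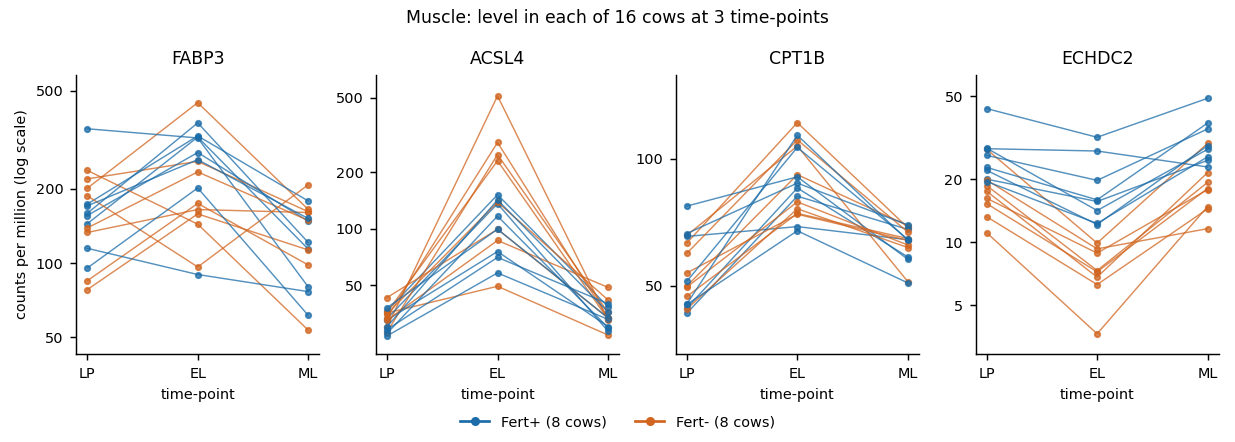
Level of FABP3, ACSL4, CPT1B and ECHDC2 in muscle, in CPM on a log axis, at LP, EL and ML. Each line is 1 cow (blue Fert+, orange Fert-, 8 cows each). ACSL4 at EL lies between 49.3 and 510 CPM, above every LP and ML library, and ECHDC2 falls from LP to EL in every cow.

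From late pregnancy to the day after calving, all 4 genes changed in muscle. ACSL4 rose 4.49-fold, CPT1B 1.65-fold and FABP3 1.45-fold, whereas ECHDC2 fell to 0.548 of its LP level. By mid-lactation each had turned back, and none of the 4 differed between ML and LP. Of 12675 genes tested, 53.9% were called between EL and LP, 59.4% between ML and EL and 6.08% between ML and LP, so that a call by itself did not set the members apart from other genes.

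ACSL4 gave the largest change. At LP the lowest, median and highest cow held 26.8, 32.9 and 43.0 CPM, at EL 49.3, 126 and 510 CPM, and at ML 27.1, 33.4 and 48.6 CPM. The EL libraries lay entirely above those of LP and of ML. Such a separation was found for 0.639% of genes upwards from LP and for 1.4% downwards to ML, and by log2 fold change ACSL4 ranked 38 from the highest of the 12675 genes. The log2 fold change from LP to EL was 2.17 (standard error 0.18, adjusted p = 1.05e-12, edgeR quasi-likelihood test), and from EL to ML it was -2.10 (0.18, adjusted p = 4.90e-13). Individual cows ranged widely at EL. Cow 164 rose 1.39-fold and cow 426 rose 17.1-fold, both of them Fert-, with a median over cows of 4.02. Without cow 426 the log2 fold change was 1.98.

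CPT1B, the gate of the mitochondrion, rose in every cow and fell again in every cow. Its lowest, median and highest values were 43.1, 50.6 and 77.3 CPM at LP, 67.5, 86.4 and 122 CPM at EL, and 50.8, 64.2 and 69.7 CPM at ML. The groups overlapped between LP and EL, but each cow moved the same way, as did 4.65% of genes from LP to EL and 8.16% in the downward step from EL to ML. The log2 fold changes were 0.72 (standard error 0.086, adjusted p = 2.29e-09) and -0.51 (0.085, adjusted p = 1.59e-06). ML stayed above LP in 13 of 16 cows (0.21, adjusted p = 0.149).

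FABP3 varied widely between cows. It ranged from 78.1 to 350 CPM at LP (median 158), from 89.9 to 447 at EL (median 246) and from 53.6 to 208 at ML (median 135). A rise from LP to EL was seen in 12 cows and a fall in 4, with a log2 fold change of 0.53 (standard error 0.20, adjusted p = 0.0251). That call was lost without batch B (0.48, adjusted p = 0.0607) and without cow 33, cow 426 or cow 3397, for which the adjusted p was at most 0.0694. The step down from EL to ML was seen in 15 of 16 cows (-0.91, standard error 0.20, adjusted p = 0.000188), and cow 1179 alone rose.

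ECHDC2 ran against the other members. The lowest, median and highest cow held 11.1, 19.97 and 43.7 CPM at LP, 3.64, 11.04 and 31.8 CPM at EL, and 11.6, 23.8 and 48.9 CPM at ML. It fell in 16 of 16 cows from LP to EL, which 5.02% of genes did, by 0.87 on the log2 scale (standard error 0.15, adjusted p = 3.00e-06). It rose in 15 of 16 cows from EL to ML by 1.03 (0.15, adjusted p = 6.97e-08), and only cow 430 did not rise. Cow 430 had also fallen least, to 0.975 of its LP level, and cow 1179 had fallen most, to 0.328.

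Exact sign-flip permutation tests over the 16 within-cow differences in log2(CPM + 1), two-sided, gave the smallest p that 16 cows allow (3.05e-05) for ACSL4 and CPT1B in both steps and for ECHDC2 from LP to EL. For ECHDC2 from EL to ML the p was 6.10e-05. The exact p for FABP3 was 0.0139 from LP to EL and 0.000885 from EL to ML. Between LP and ML that test gave 0.0115 for CPT1B, 0.0579 for FABP3, 0.0663 for ECHDC2 and 0.355 for ACSL4. These tests are per gene and were not adjusted for the number of changes tested.

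The muscle libraries at EL also held less RNA of contractile genes. Of the 11 gene rows of the skeletal muscle fibre list, 10 fell from LP to EL and none rose, and 10 rose from EL to ML. Their summed level was between 160290 and 255398 CPM at LP, between 37078 and 232576 CPM at EL and between 220432 and 298943 CPM at ML, and no row was at 0 in every library. In biopsies, fewer fibres and less of their RNA per fibre cannot be told apart. Slow fibre genes fell at 8 of 9 rows and fast fibre genes at 9 of 9. Neutrophil markers moved in the other direction, with 2 of the 2 tested rows (of 3) higher at EL, with a sum of at most 15.1 CPM. Of the thinner lists, the 1 endothelial gene rose, 1 of 3 adipocyte genes fell, and erythroid and macrophage genes were too low to test in muscle. Hepatocyte markers were higher in muscle at ML, at 6 of 7 tested rows against EL and at 6 of 7 against LP (median log2 fold change 3.22 and 5.16). Their summed level in muscle was 1.62 to 8.29 CPM at LP, 1.36 to 46.5 CPM at EL and 2.75 to 185 CPM at ML. From EL to ML 1 of 2 neutrophil rows fell, 1 of 3 adipocyte rows rose and the endothelial row was not called. The part of these lists in the members' changes was not tested.

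Other genes of fatty acid handling moved both ways in muscle. A list of 81 genes in 7 roles held 33 identified genes beside the 4 members, of which 30 were tested. From LP to EL, 8 rose, 9 fell and 13 did not pass the test, with a median log2 fold change of -0.06 beside 0.02 over all genes. The share called, 56.7%, was near the 53.9% over all genes. The rises were in uptake and binding (2 of 7), activation (1 of 2), mitochondrial beta-oxidation (2 of 10), peroxisomal beta-oxidation (1 of 5) and regulators and their targets (2 of 4). The falls were in uptake and binding (1), the carnitine shuttle (1 of 1), mitochondrial beta-oxidation (3), peroxisomal beta-oxidation (3) and ketone body metabolism (1 of 1).

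The largest rises were those of PDK4, the kinase that shuts pyruvate out of the citric acid cycle during fasting (log2 fold change 1.57, adjusted p = 4.31e-06), SLC27A6, a fatty acid transport protein (1.25, adjusted p = 1.78e-05), and UCP3, an uncoupling protein of muscle mitochondria (0.98, adjusted p = 0.000528). All 3 fell again from EL to ML, and PDK4 and UCP3 then lay below LP (-0.92 and -0.77, adjusted p = 0.0269 and 0.0393). The largest falls were those of EHHADH, a peroxisomal enzyme with enoyl-CoA hydratase activity (-1.18, adjusted p = 0.000144), DBI, the acyl-CoA binding protein (-0.77, adjusted p = 2.35e-07), and ACAT1, the thiolase of ketone body metabolism (-0.75, adjusted p = 3.19e-08). These rose back by 1.5005, 0.62 and 0.83. Among close relations of the members, ACSL1, the main synthetase of muscle and liver, went with ACSL4 but by less (0.34 and then -0.57, adjusted p = 0.0229 and 0.000221), and FABP4, the fat cell carrier, did not pass the test (0.55, adjusted p = 0.283). CPT1A and ECHDC3 had no identifier here.

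**Figure D2:**
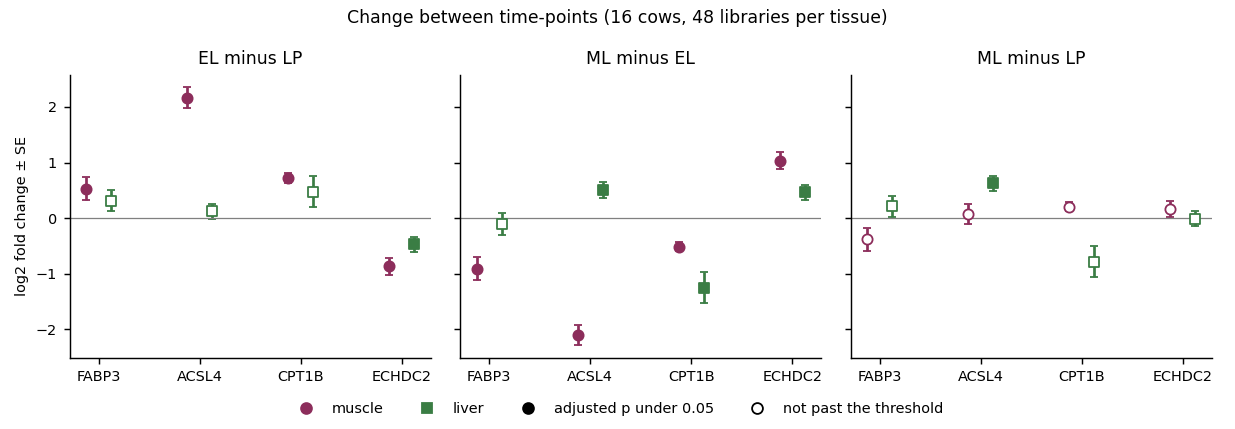
Log2 fold change between time-points with its standard error, for the 4 genes in muscle (circles) and liver (squares), 16 cows per time-point. Filled symbols passed an adjusted p of 0.05. All 4 muscle symbols are filled in the first and second panels and open in the third, and the ACSL4 symbols of the tissues lie apart (2.17 and 0.12 from LP to EL).

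In liver 1 member was called from LP to EL, ECHDC2, with a fall, and 3 were called from EL to ML. In the later step ACSL4 and ECHDC2 rose and CPT1B fell. Between LP and ML ACSL4 was higher at ML. Over all 13815 genes tested 3.24%, 38.2% and 12.5% were called in these 3 contrasts.

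ECHDC2 was lower at EL than at LP in 15 of 16 cows. Its lowest, median and highest values were 100.5, 121 and 199 CPM at LP, 20.4, 91.5 and 134 CPM at EL and 87.9, 122 and 156 CPM at ML. The log2 fold change from LP to EL was -0.47 (standard error 0.14, adjusted p = 0.0460, exact sign-flip p = 0.000275). The call was lost without batch B (-0.33, adjusted p = 0.153), when no gene at all was called in that contrast, without a gene filter (adjusted p = 0.0636), and in each fit that left out a cow other than 33, 426, 430 or 3434, with adjusted p-values between 0.0180 and 0.139 over the 16 such fits. From EL to ML it rose by 0.46 (0.14, adjusted p = 0.00711) in 14 of 16 cows, and ML and LP differed by -0.01. Hepatocyte markers fell at 4 of 10 genes from LP to EL (summed level 143909 to 237591 CPM at LP and 125292 to 217790 CPM at EL, none at 0), and neutrophil markers rose at 3 of 3 (2.62 to 19.4 CPM at LP and 2.32 to 284 CPM at EL). No adipocyte, endothelial, erythroid or macrophage gene tested was called in that contrast. The part of these cells in the fall of ECHDC2 was not tested.

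CPT1B spread widely between cows in liver, and at LP and EL more than any other member by coefficient of variation. It ranged from 3.47 to 33.4 CPM at LP (median 7.13), from 1.77 to 61.0 at EL (median 12.2) and from 2.92 to 11.8 at ML (median 4.85). The coefficients of variation were 80.1%, 90.7% and 44.9% for LP, EL and ML, against 19.2%, 19.2% and 9.24% in muscle. They pool the genotypes, and so include the gap between them. In liver at EL, CPT1B held 7.57 ± 3.43 CPM (SD) in Fert+ and 26.2 ± 17.1 CPM in Fert- cows. From EL to ML CPT1B fell by 1.25 on the log2 scale (standard error 0.28, adjusted p = 0.000661), in 13 of 16 cows. The change from LP to EL did not pass the test (0.47, adjusted p = 0.345, higher in 11 of 16 cows). ML lay below LP by 0.78, with an adjusted p of 0.0594 that passed under DESeq2 (0.0334), without batch B (0.0473), and without cow 419, 982, 996 or 3397 (lowest 0.0270).

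ACSL4 rose late in liver. Its lowest, median and highest cow held 5.79, 10.5 and 17.5 CPM at LP, 6.70, 10.3 and 24.2 CPM at EL and 8.72, 16.4 and 23.8 CPM at ML. ML was above EL in 14 of 16 cows (log2 fold change 0.50, standard error 0.14, adjusted p = 0.00358) and above LP in 14 of 16 (0.63, 0.14, adjusted p = 0.00220). The change from LP to EL was 0.12 (adjusted p = 0.666), and -0.03 without cow 3847. FABP3 in liver gave log2 fold changes of 0.32, -0.11 and 0.21 in the 3 contrasts (adjusted p = 0.376, 0.695 and 0.5265), values that rest on 11 to 78 counts per library. Without batch B its change from EL to ML was 0.26.

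Markers of other cells also moved in liver from EL to ML. Neutrophil markers fell at 3 of 3 rows (median log2 fold change -2.87), from 2.32 to 284 CPM at EL to 2.76 to 11.01 CPM at ML in summed level (medians 6.53 and 5.81). Hepatocyte markers rose at 4 and fell at 3 of 10 rows, and summed to 125292 to 217790 CPM at EL and 86585 to 235472 CPM at ML. The endothelial gene rose by 0.75 on the log2 scale, the 1 tested slow fibre row fell by 1.07, 1 of 2 tested rows of the skeletal muscle fibre list and 1 of 2 of the fast fibre list rose, and 1 of 3 erythroid rows fell. No adipocyte or macrophage row was called. Between LP and ML 1 hepatocyte row, the slow fibre row and 1 erythroid row were lower at ML, and no neutrophil row was called. The part of these cells in the changes of CPT1B, ACSL4 and ECHDC2 was not tested.

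**Figure D3:**
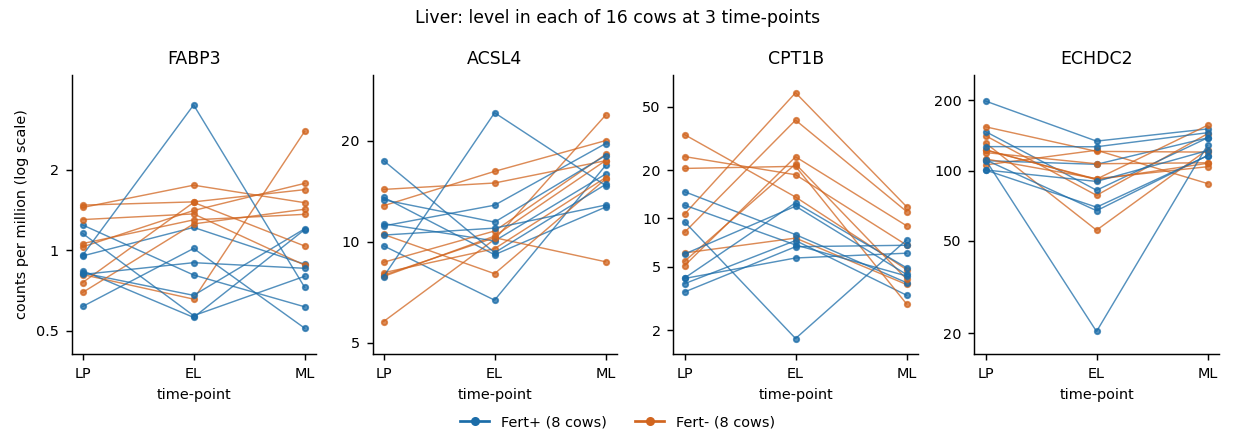
Level of the 4 genes in liver, in CPM on a log axis, at LP, EL and ML, with 1 line per cow (blue Fert+, orange Fert-, 8 cows each). CPT1B at EL spreads from 1.77 to 61.0 CPM, with the highest values in Fert- cows, and FABP3 stays between 0.511 and 3.50 CPM.

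Of the 33 other pathway genes, 32 were tested in liver. From LP to EL 1 fell, ACSL5, an acyl-CoA synthetase of liver and intestine (-0.52, adjusted p = 0.0345), and none rose, a share of 3.12% beside 3.24% over all genes. From EL to ML 6 rose and 6 fell (37.5%), and between LP and ML 1 was higher and 5 were lower (18.8%). ACSL1 ran opposite to ACSL4 there. It fell by 0.78 from EL to ML (adjusted p = 0.000419) and lay 0.90 below LP at ML (log2 fold change -0.90, adjusted p = 0.000497). FABP4 was near 0 in liver, with a highest library of 1.64 CPM.

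The tissues themselves were compared in their change with time, in a fit of all 96 libraries. From LP to EL the change of ACSL4 was larger in muscle by 2.09 on the log2 scale (standard error 0.23, adjusted p = 1.69e-11), in a contrast where 25.7% of 14613 genes were called. For FABP3, CPT1B and ECHDC2 the difference was 0.28 (0.29), 0.27 (0.29) and -0.37 (0.21), with adjusted p-values of 0.544, 0.546 and 0.185. From EL to ML, where 35.9% of genes were called, ACSL4 differed by -2.66 (0.23, adjusted p = 1.13e-16), FABP3 by -0.89 (0.29, adjusted p = 0.0111), ECHDC2 by 0.53 (0.21, adjusted p = 0.0355) and CPT1B by 0.70 (0.29, adjusted p = 0.0520). Muscle and liver thus moved in opposite directions for ACSL4 in that step, down in 16 of 16 cows in muscle and up in 14 of 16 in liver. For FABP3 the difference was -0.75 without a gene filter (adjusted p = 0.0511). For CPT1B it passed with RLE factors (0.78, adjusted p = 0.0274) and without a gene filter (0.81, adjusted p = 0.0309).

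The study compared Fert+ with Fert- cows at each time-point, and each of the 4 genes was on its lists of differing genes for at least one tissue. Those lists were chosen on these same samples, so the values below are not independent evidence of a difference. This holds for direction, size, p-values, separation and rank alike. By edgeR's quasi-likelihood test on 8 against 8 cows none of the 4 was called in either tissue at any time-point. Among all genes that test called 0 of 11954, 1 of 12035 (0.00831%) and 0 of 12001 in muscle at LP, EL and ML, and 0 of 12872, 13047 and 13235 in liver. At an unadjusted p under 0.05 it held 1, 2 and 1 of the 4 members in muscle, where 6.69%, 11.8% and 7.65% of genes had such a p, and 1, 1 and 1 in liver, where 6.54%, 11.7% and 12.4% had. DESeq2 called 0, 1 and 1 members in muscle and 0, 1 and 0 in liver, among 0.215%, 1.32% and 0.0923% and 0.0106%, 0.0835% and 0.59% of genes. The edgeR exact test with 1 common dispersion, the closest to the study's own test, called 1, 2 and 1 in muscle, where it called 1.79%, 3.64% and 1.78% of genes, and 1, 1 and 1 in liver, where it called 2.38%, 2.31% and 2.11%.

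In muscle the median of ECHDC2 was higher in Fert+ than in Fert- cows at all 3 time-points, and all 8 Fert+ cows lay above the Fert- median each time. At LP the lowest, median and highest Fert+ cow held 19.5, 24.5 and 43.7 CPM and the Fert- cows 11.1, 16.9 and 27.9 CPM. At EL the values were 12.2, 15.8 and 31.8 CPM in Fert+ and 3.64, 7.27 and 9.91 CPM in Fert-. At ML they were 22.9, 28.4 and 48.9 CPM against 11.6, 18.0 and 29.8 CPM. The genotypes overlapped at LP and ML, and at EL every Fert+ cow lay above every Fert- cow, a separation in that direction shared by 0.0249% of genes. Fert+ exceeded Fert- by 0.58 in late pregnancy on the log2 scale (standard error 0.18, adjusted p = 0.506), by 1.32 in early lactation (0.23, adjusted p = 0.0914) and by 0.77 in mid-lactation (0.18, adjusted p = 0.490). The exact permutation test over cows, two-sided, gave p = 0.00699, 0.000155 and 0.00171, of which the second is the smallest that 8 against 8 cows allow. A single fit of all 48 muscle libraries, which did not pair the libraries of a cow, called 4.45% of genes at EL. The adjusted p of ECHDC2 there was 0.000165. Under DESeq2 it was 7.53e-05, and it passed the threshold without cow 1000, cow 3434 or cow 3847 (lowest 0.0279). Of the 23 alternatives only 6 called it at EL, and its adjusted p reached 0.298 in the others. The fit without batch B, to which 2 of the Fert- libraries at EL belong, did not call it. The log2 difference at EL lay between 1.18 and 1.41 in all alternatives.

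None of the 11 fibre rows was called between genotypes at LP, EL or ML, with median log2 differences of 0.11, 0.62 and 0.12 (Fert+ minus Fert-). At EL the sum of the fibre markers was between 65728 and 232576 CPM in Fert+ cows (median 137583) and between 37078 and 124787 CPM in Fert- cows (median 80907). With the genotype means removed, ECHDC2 and the fibre sum at EL correlated over the 16 cows with Pearson's r = 0.71 (permutation p = 0.00544, adjusted p = 0.0707 over 52 relations) and Spearman's rho = 0.63 (permutation p = 0.0157, adjusted p = 0.163). Leaving out the 2 cows farthest from the median sum gave r = 0.49, and the 14 cows without a batch B library gave 0.72. For ACSL4 the same correlation was r = -0.33 and rho = -0.50 (permutation p = 0.195 and 0.0410, adjusted p = 0.431 and 0.239). The part of the fibre genes in the genotype difference of ECHDC2 was not tested.

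**Figure D4:**
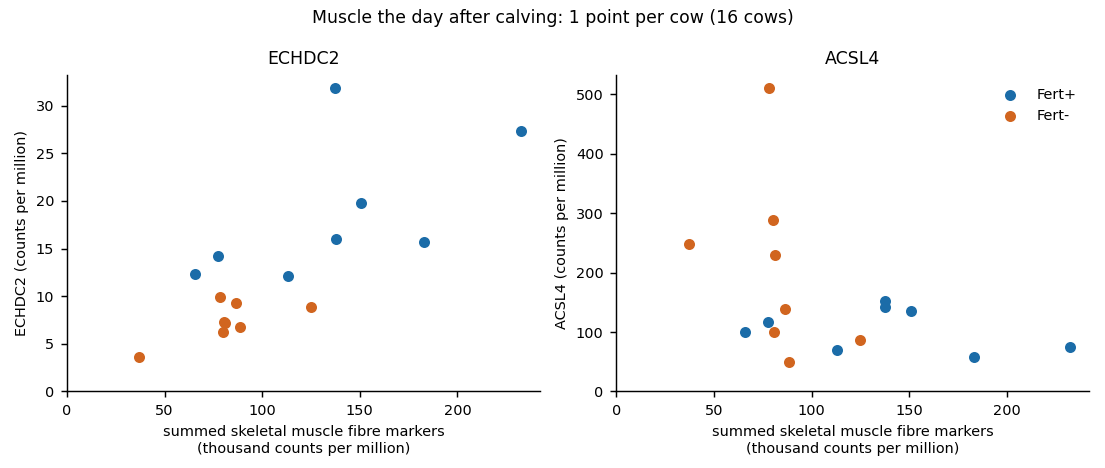
ECHDC2 (left) and ACSL4 (right) in muscle at EL, in CPM, against the summed level of the skeletal muscle fibre markers in units of 1000 CPM, with 1 point per cow (blue Fert+, orange Fert-). The 8 Fert+ points lie above the 8 Fert- points for ECHDC2, and the 3 highest ACSL4 values, from 248 to 510 CPM, are Fert- cows.

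ACSL4 in muscle at EL had the lower median in Fert+ cows, at 58.1, 108 and 152 CPM (lowest, median, highest) against 49.3, 184 and 510 CPM. The ranges overlapped, and the lowest of all 16 values was a Fert- cow. The log2 fold change was -0.97 (standard error 0.38, adjusted p = 0.333, exact permutation p = 0.126), and -0.61 without cow 426. It was called with 48 libraries in a single fit, which did not pair the libraries of a cow (adjusted p = 0.0180). The exact test with common dispersion also called it (0.00101), and DESeq2 did not (0.184). At LP and ML the log2 fold change was -0.12 and -0.09. CPT1B and FABP3 in muscle differed between genotypes by at most 0.37 on the log2 scale at any time-point (adjusted p of at least 0.655).

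In liver the widest gap was that of CPT1B. At EL the Fert- cows held 7.53, 21.5 and 61.0 CPM (lowest, median, highest) and the Fert+ cows 1.77, 7.05 and 12.5 CPM. Only the lowest Fert- cow, 164, lay within the Fert+ range. The log2 fold change was -1.79 (standard error 0.39, adjusted p = 0.379, exact permutation p = 0.000932), rank 7 from the lowest of the 13047 genes. The LP difference was -0.97 (0.45, adjusted p = 0.764, exact p = 0.105), with 5.07, 9.40 and 33.4 CPM in Fert- and 3.47, 5.11 and 14.7 CPM in Fert+. At ML it was -0.40 (0.27, adjusted p = 0.566). The EL difference was called by DESeq2 (adjusted p = 0.0244) and by the exact test with common dispersion (4.83e-08). It was also called with 48 libraries in a single fit, which did not pair the libraries of a cow (0.0202, among 2.62% of genes). These were the only 3 of 23 alternatives that called it, and its adjusted p reached 0.596 in the others. The fit without batch B was among those that did not call it. The EL difference lay between -1.93 and -1.44 in all alternatives, and was -1.64 without cow 3847. The summed level of the skeletal muscle fibre list in liver at EL was 14.1 to 19.0 CPM in Fert- and 11.8 to 21.7 CPM in Fert+ cows, with 4 and 5 of its 11 rows at 0 in every library. The slow fibre list summed to 70.9 to 291 CPM and 86.3 to 403 CPM, with 3 and 6 of 9 rows at 0 in every library. Neutrophil markers were between 3.75 and 284 CPM in Fert- and between 2.32 and 102 CPM in Fert+ liver at EL, and the part of these lists was not tested.

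FABP3 in liver at ML had the lower median in Fert+ cows, at 0.511, 0.828 and 1.20 CPM against 0.880, 1.47 and 2.79 CPM (log2 fold change -0.89, standard error 0.24, adjusted p = 0.224, exact permutation p = 0.00280). The exact test with common dispersion called it (adjusted p = 0.0188) and DESeq2 did not (0.0604). Differences in liver ACSL4 and ECHDC2 were at most 0.33 in size, and their adjusted p-values were at least 0.595.

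Whether the genotype gap itself changed with time was tested over the 48 libraries of a tissue. No gene of the 12675 in muscle or 13815 in liver was called (857 and 912, or 6.76% and 6.6%, at an unadjusted p under 0.05). ACSL4 and ECHDC2 in muscle had unadjusted p-values of 0.0249 and 0.0388 (adjusted 0.634 and 0.695), and CPT1B in liver had 0.0536 (adjusted 0.751). That fit did not pair the libraries of a cow. With the cow as a block the same edgeR test gave 0.110 for ACSL4 and 0.00136 for ECHDC2 in muscle (adjusted 0.659 and 0.205). For CPT1B in liver it gave 0.0727 (adjusted 0.668). A difference in the genotype gap between EL and the other time-points was thus not shown for any member after adjustment, with or without the cow as a block.

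**Figure D5:**
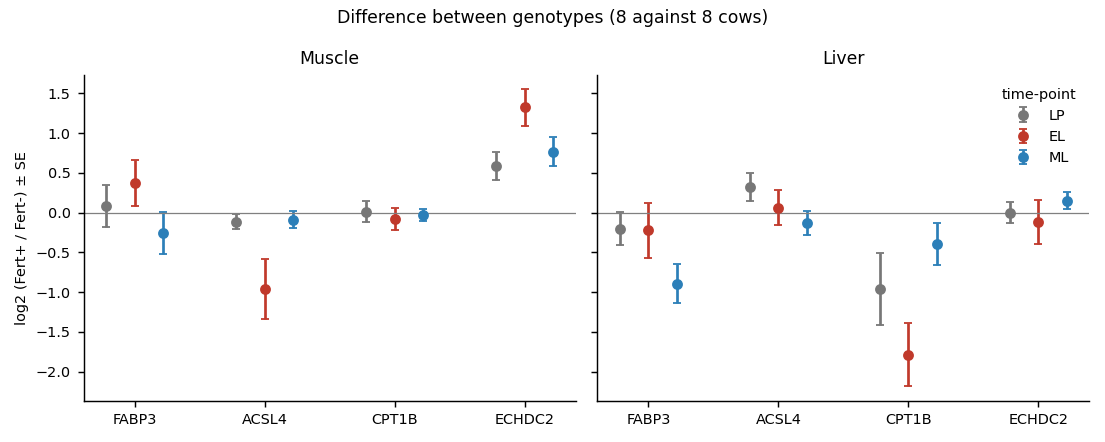
Log2 ratio of Fert+ to Fert- cows with its standard error at LP, EL and ML, for the 4 genes in muscle (left) and liver (right), 8 against 8 cows. ECHDC2 in muscle lies between 0.58 and 1.32 at the 3 time-points, and CPT1B in liver at -0.97, -1.79 and -0.40.

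With the genotype means removed, ECHDC2 in muscle at LP and at EL correlated over 16 cows with r = 0.82 (permutation p = 8.00e-05, adjusted p = 0.00416 over 52 relations) and rho = 0.78 (permutation p = 0.000750, adjusted p = 0.0390), with r = 0.74 without the 2 cows farthest from the median and 0.83 in the 14 cows without a batch B library. Between LP and ML it gave r = 0.63 and rho = 0.38 (permutation p = 0.01295 and 0.161, adjusted p = 0.112 and 0.517), and this r rested on 2 cows, since it was 0.11 without them. In liver ECHDC2 at LP and ML gave r = 0.57 and rho = 0.68 (permutation p = 0.00429 and 0.00522, adjusted p = 0.0707 and 0.0905). Among the changes from LP to EL in muscle, CPT1B and ACSL4 gave the smallest p (r = 0.47 and rho = 0.57, permutation p = 0.00463 and 0.00196, adjusted p = 0.0707 and 0.0510), and r = 0.64 in the 14 cows without a batch B library. FABP3 in muscle and liver at ML gave r = 0.68 and rho = 0.64 (permutation p = 0.00791 and 0.0108, adjusted p = 0.0823 and 0.141). Of the 52 relations, ECHDC2 between LP and EL in muscle was the only one that passed after adjustment.

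The genes whose pattern was most like each member were sought among tested genes named in the study's supplementary lists. These were 1684 of the 12675 tested in muscle and 1881 of the 13815 tested in liver, and the other tested genes were not compared. Likeness was Spearman's rho of log2(CPM + 1) over the 48 libraries of the tissue where the member was higher, which share cows and time-points. Over 1684 genes in muscle, CPT1B was followed most closely by THOP1, a peptidase (rho = 0.85), STRIP2 (0.79) and CATB (0.77). ACSL4 was followed by ITM2B (0.80), PSMC2, a proteasome subunit (0.79), and TMED2, a protein of vesicle transport (0.77). TMED2 kept its rho at 0.79 once the group means were removed, whereas THOP1 then gave 0.40. FABP3 had weaker neighbours, EIF3J (0.63), ZNF474 (0.62) and MT2 (0.62). Over 1881 genes in liver, ECHDC2 was followed by SCP2, the peroxisomal sterol carrier and thiolase (0.77, and 0.79 with group means removed), RHBG, an ammonium transporter (0.77 and 0.73), and RGN, regucalcin (0.76 and 0.64). SCP2 is on the pathway list, and its median was 1538, 1166 and 1963 CPM at LP, EL and ML (log2 fold change from LP to EL -0.46, adjusted p = 0.142).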

How the data were processed

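The values are read-pair counts per gene row, deposited by the authors for each of 96 libraries without normalization. The authors prepared polyA RNA with a TruSeq v2 kit, used Trimmomatic for trimming and STAR for alignment to UMD3.1 (Ensembl70) and counted proper pairs with featureCounts. The submitters' processing notes also name CASAVA 1.8. Strand settings are not given in the sources used here, and in RefSeq (ARS-UCD2.0) ACSL4 overlaps a transcribed pseudogene and ECHDC2 a long non-coding RNA, whose reads could not be told apart. Another 96 count columns without sample names were not used. Members and gene lists were chosen with earlier results of these data known.

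Groups came from the labels. Fits used edgeR 4.0.16 and limma 3.58.1 under R 4.3.3 (quasi-likelihood test, two-sided, robust, TMM, filterByExpr, Benjamini-Hochberg adjustment over all genes tested, threshold 0.05): time-points over 48 libraries of a tissue, genotypes over 16 of a time-point, and tissues over all 96. Alternatives were RLE factors, no gene filter, no robust estimation, DESeq2 1.42.0, the edgeR exact test with common dispersion, 48 libraries in a single fit, the cow as a block, each cow left out, and no batch B (libraries in which 11 or more marker genes held at least 50 counts; marker genes had medians no higher than 2 in each tissue but reached 50 in some library of each). Same-numbered libraries are the same cow, and their residuals correlated above 0.1 in 42 of 48 pairs in muscle and 39 of 48 in liver. Fits of 48 or 96 libraries did not pair them, except those with the cow as a block. No 2 of 336 library pairs within a group agreed within sampling noise (lowest chi-square per gene 18.1). Permutation tests ran in Python 3.11.15 with scipy 1.17.1 and numpy 2.4.6. Correlations used 100000 permutations of cows within genotype. The fits were tested on simulated counts.

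Pathway genes are named where they were among the 3 largest rises or falls called between EL and LP in a tissue, or are close relations of a member. Gene names came from the study's supplementary lists (2161 identifiers), so pathway counts cover 37 of 81 listed genes. Endothelial, adipocyte, erythroid and macrophage lists had 1 to 3 identified gene rows each.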

Additional observations from a re-analysis of the deposited data

Results flagged for a closer look

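Of 48 groups of 8 cows (4 genes, 2 tissues, 3 time-points and 2 genotypes), 9 held a cow whose gap to the nearest other cow exceeded Dixon's critical value (as a share of the group's range). That value flags about 1 group in 20 by chance only for normal data. The shape of the CPM values was not tested and the groups share cows, so the 9 cannot be set against that rate. Liver at EL of Fert+ cow 3847 was set apart for ACSL4 (24.2 CPM, next 12.9) and FABP3 (3.50 CPM, next 1.22). Cow 426 (Fert-) was highest for FABP3 in muscle at EL (447 CPM, next 258) and in liver at ML (2.79 CPM, next 1.78) and lowest for FABP3 in liver at EL (0.656 CPM, next 1.26). Cow 33 (Fert+) was highest for ECHDC2 at LP in muscle (43.7 CPM, next 28.2) and in liver (199 CPM, next 147). Cow 430 (Fert+) was highest for FABP3 in muscle at LP (350.2 CPM, next 173). Cow 419 (Fert-) was lowest for CPT1B in muscle at ML (51.2 CPM, next 61.6).

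The change with time differed between muscle and liver, by the test of that difference, for ACSL4 from LP to EL (2.09 on the log2 scale, muscle minus liver) and from EL to ML (-2.66), and from EL to ML also for ECHDC2 (0.53) and FABP3 (-0.89).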

How the results depend on the processing

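Of the member values, 370 kept their direction and side of the threshold under alternatives other than leaving out a cow, 17 newly passed, 4 no longer passed and 5 changed sign. When each cow was left out, 721 kept both, 7 newly passed, 15 no longer passed and 25 changed sign. The cause of these changes was not tested. Without batch B the sign changed for FABP3 between genotypes in muscle at LP (-0.0115), FABP3 in liver from EL to ML (0.26), ECHDC2 in liver between LP and ML (0.0940, and 0.00556 with the cow as a replicate block, -0.01 otherwise) and ACSL4 between genotypes in liver at EL (-0.11).

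The number of members called between genotypes, 0 throughout, became 1, 2 and 1 in muscle (LP, EL, ML) and 1, 1 and 1 for liver under the exact test with common dispersion. It became 2 in muscle at EL and 1 in liver at EL with 48 libraries in a single fit, and 1 in muscle at EL, 1 in muscle at ML and 1 in liver at EL with DESeq2. In liver, members called from LP to EL went from 1 to 0 without a gene filter and without batch B, and between LP and ML from 1 to 2 with DESeq2 and without batch B. Leaving out each cow gave 0 to 1 members between genotypes in muscle at EL, 0 to 1 from LP to EL in liver and 1 to 2 between LP and ML in liver.

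Leaving out each cow moved the log2 genotype difference across 0 for CPT1B in muscle at LP (-0.0689 to 0.0670), EL (-0.121 to 0.00763) and ML (-0.0763 to 0.00249), FABP3 in muscle at LP (-0.14 to 0.19), ECHDC2 in liver at LP (-0.126 to 0.0444) and EL (-0.244 to 0.0268) and ACSL4 in liver at EL (-0.17 to 0.16). The same held in liver for ACSL4 from LP to EL (-0.0279 to 0.184), FABP3 from EL to ML (-0.25 to 0.15) and ECHDC2 between LP and ML (-0.0457 to 0.0380).

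Over all genes, calls from LP to EL in liver went from 448 to 297 without a gene filter and 0 without batch B, and ranged from 5 to 1086 when each cow was left out. Calls between LP and ML in muscle went from 771 to 1190 with the replicate block. Genotype calls, at most 1, became (muscle, then liver, each in the order LP, EL, ML) 214, 438, 214, 306, 301 and 279 under the exact test and 28, 134, 13, 2, 13 and 76 under DESeq2, and 564 in muscle and 362 in liver at EL with 48 libraries in a single fit. The replicate block changed no member's call (FABP3 from LP to EL in muscle 0.52, adjusted p = 0.0126 by edgeR). Depth limits FABP3 in liver most, at 11 to 78 counts per library.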
